A study of Homo sapiens with 3 samples.

Results

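The genes described here build the centromere and kinetochore of the human chromosome, run the spindle assembly checkpoint and drive the entry into and exit from mitosis. They were taken by symbol from a list whose rule uses no measured level, although the list was drawn up with earlier results of these data known, and all 47 symbols were found among the 58039 genes of the deposited expression table. RNA was sequenced from T47D cells, an established oestrogen receptor-positive human breast cancer line, in 3 libraries. In the library called shRNA1 the long noncoding RNA ERINA was knocked down with 1 short hairpin RNA, and in the library called shRNA2 with another. The third library was the control, named shCtrl in its description although its shRNA label reads None. All of the cells were described as stable lines made by lentiviral infection and puromycin selection; whether a line was a clone or a mixed population is not given in the sources used here. The comparison is of 2 knockdown libraries with 1 control library, which has no replicate, and asks how transcript levels stand after loss of ERINA. Nothing in the labels says that the knockdown libraries came from separate cultures of 1 line. Every p-value below therefore measures only the spread between libraries made with different hairpins, in the gene itself and, by borrowed variance, in the other genes fitted.

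As background, a kinetochore is the protein plate that joins a chromosome to the microtubules of the spindle. Its inner layer sits on nucleosomes that hold the histone variant CENP-A, and its outer layer, including the NDC80 complex, binds microtubules. Kinetochores without attached microtubules keep the spindle checkpoint on, which holds back the anaphase-promoting complex (APC/C) until all chromosomes are attached. Most of these genes are transcribed in G2 and mitosis in dividing cells, so their RNA level in a bulk sample depends on how many cells are in those phases as well as on the RNA in each cell.

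Levels are given in FPKM, fragments scaled to transcript length and library size. This scaling does not make the totals of the libraries equal, so some results are also given at the same total FPKM. The summed FPKM of all genes was 860240 with shRNA1, 808451 with shRNA2 and 790290 in the control. The depth was estimated, within a range set beforehand, at about 33100000, 33400000 and 32200000 fragments in the same order. ERINA itself, listed under its synonym LINC00992, was at 5.21 FPKM with shRNA1 and 8.91 with shRNA2, against 63.4 in the control. Its deposited bounds with either hairpin (2.09 to 8.34 and 4.04 to 13.8) lay under those of the control (38.4 to 88.5). The 7 luminal epithelial markers read were all present (ESR1 between 16.5 and 17.96 FPKM), and the 3 basal markers summed to 1.599 to 2.15 FPKM in any library. The summed level of the 3 fibroblast markers was 1.29 FPKM with shRNA1 and 0.697 with shRNA2, against 0.165 in the control, with DCN at 1.25 FPKM with shRNA1, 0.663 with shRNA2 and 0.0227 in the control; the 3 immune and 3 endothelial markers each summed to under 1 FPKM.

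The 47 genes were lower as a group with both hairpins. Their summed level was 1159.2 FPKM with shRNA1 and 1397.3 with shRNA2, against 2141.7 in the control, which is 54.1% and 65.2% of the control sum. For 46 of the 47, both knockdown libraries lay under the control library, where 42.6% of the 13112 genes tested did so; the exception was ZWILCH. The median log2 change was −0.91 with shRNA1 and −0.63 with shRNA2, against 0.00 with either hairpin over all genes tested. In 7 genes (CENPK, SPC24, DSN1, AURKB, PLK1, CDC25B and ESPL1) both knockdown libraries were at or under 50% of the control, a drop found in 1.99% of all genes tested. In these bulk libraries, fewer cells in G2 and mitosis and less RNA per cell cannot be told apart.

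With 1 degree of freedom left for error, limma called none of the 47 lower after Benjamini-Hochberg adjustment over all genes tested, where it called 0.267% of them. The adjusted p-values of the members ran from 0.0813 for ESPL1 to 0.610 for ZWILCH. At an unadjusted p under 0.05, 45 members were lower, against 15.9% of all genes tested, the exceptions being ZWILCH and PLK4. When only the 11546 protein-coding genes were refitted and adjusted, 43 members passed at 0.05, all lower, against 11.3% of those genes. With robust eBayes over all genes 23 members were called lower, against 4.54% of genes, and with all libraries at the same total FPKM 2 were, against 0.847%.

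**Figure D1:**
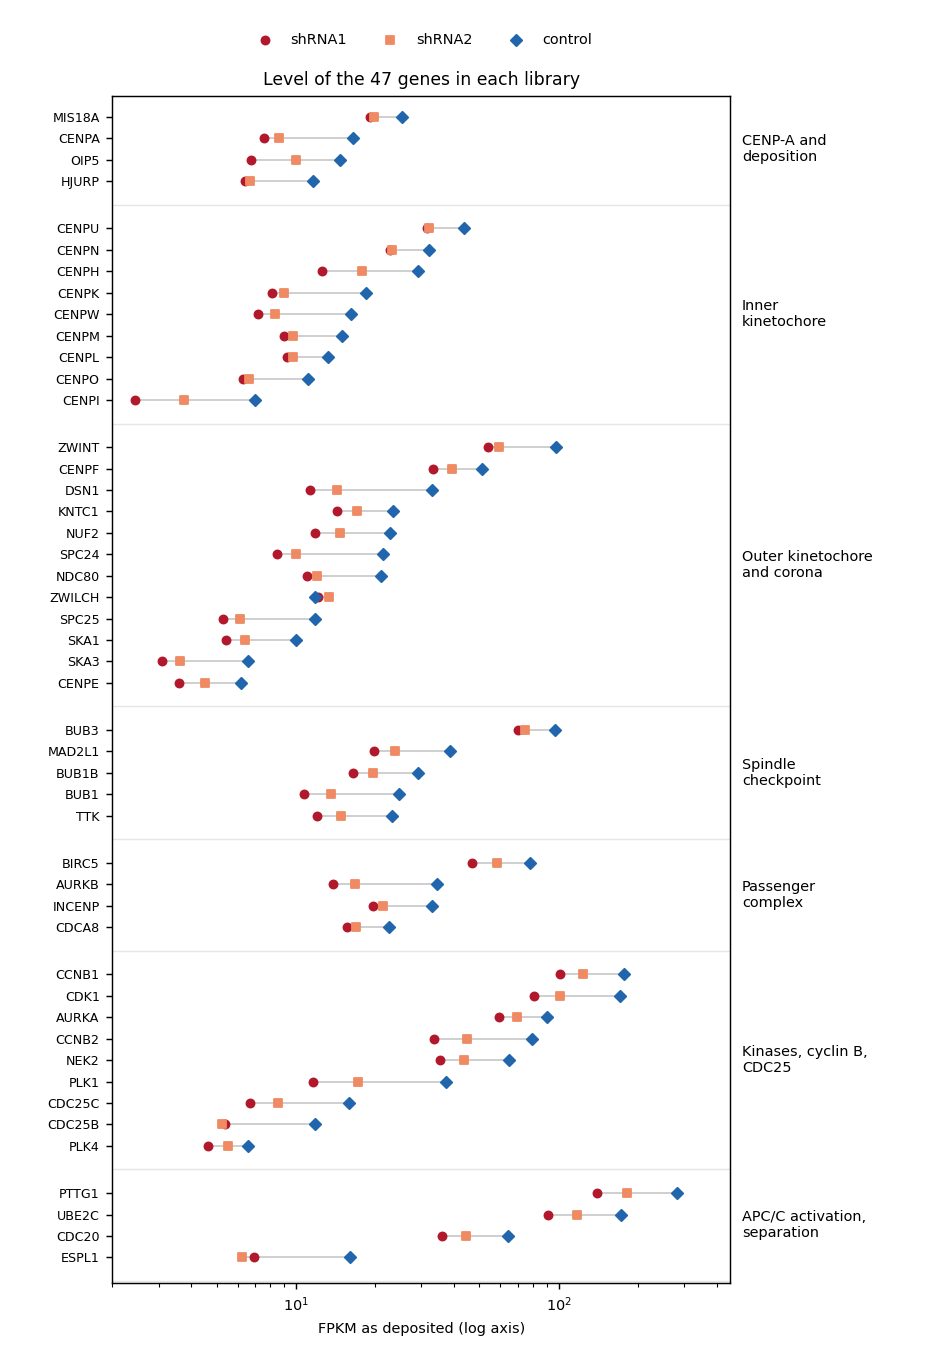
FPKM (log axis) of each of the 47 genes, grouped by role and ordered by control level, with circles for shRNA1, squares for shRNA2 and diamonds for the control, 1 library each, joined by a grey line. Control levels run between 6.18 FPKM for CENPE and 282 for PTTG1, and the knockdown points lie under the control level for every gene but ZWILCH, whose shRNA1 point changes side at the same total FPKM.

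Genes of this kind often carry a short element near the transcription start, the cell cycle genes homology region, through which the DREAM complex holds them down in resting cells, and CCAAT boxes bound by NF-Y. The promoters were therefore read for the words TTTGAA and CCAAT, on both strands, in RefSeq windows of GRCh38.p14 running from 250 bases before to 50 bases after the start, which were found for 37 of the 47 genes. Only the first listed start of each gene was read, so any other start of a gene was not searched. TTTGAA was present in 21 of the 37 (56.76%), against 12.14% of the windows of 15843 protein-coding genes, and lay within 50 bases of the start in 48.65%, against 3.27%. CCAAT was present in 67.57% of the members' windows, against 36.36%. The E2F words TTTCCCGC or TTTGGCGC were present in 5.405%, against 3.061%. The 120 bases before the start are shown for the 6 members that hold TTTGAA wholly within the 40 bases before the start with CCAAT in the printed stretch, so that the spacing can be read, and for DSN1, chosen after its values were seen as the second most negative gene in the fit over both hairpins, which holds neither word. Capitals mark TTTGAA and CCAAT or their reverse complements TTCAAA and ATTGG, and in CDCA8 the TTTGAA and an ATTGG overlap.
DSN1: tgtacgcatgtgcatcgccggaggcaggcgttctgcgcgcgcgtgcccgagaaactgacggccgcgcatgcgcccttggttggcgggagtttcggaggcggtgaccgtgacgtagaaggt
ZWINT: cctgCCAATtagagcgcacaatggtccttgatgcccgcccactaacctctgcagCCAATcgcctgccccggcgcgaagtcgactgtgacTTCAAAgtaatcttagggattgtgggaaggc
CDCA8: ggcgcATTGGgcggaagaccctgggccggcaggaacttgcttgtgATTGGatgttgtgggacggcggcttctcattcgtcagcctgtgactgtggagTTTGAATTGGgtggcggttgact
INCENP: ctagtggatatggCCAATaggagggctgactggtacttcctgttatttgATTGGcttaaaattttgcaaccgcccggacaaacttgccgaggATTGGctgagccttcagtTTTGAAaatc
PLK1: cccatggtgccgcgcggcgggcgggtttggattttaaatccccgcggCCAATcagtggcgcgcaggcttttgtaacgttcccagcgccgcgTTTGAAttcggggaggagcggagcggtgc
CCNB2: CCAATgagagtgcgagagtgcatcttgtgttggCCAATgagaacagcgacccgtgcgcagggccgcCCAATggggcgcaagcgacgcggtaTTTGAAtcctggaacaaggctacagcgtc
ESPL1: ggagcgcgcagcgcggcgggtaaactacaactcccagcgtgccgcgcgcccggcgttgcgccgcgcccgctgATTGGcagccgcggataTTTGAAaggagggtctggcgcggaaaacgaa
These stretches lie at chr20:36773764-36773883 (minus strand, DSN1), chr10:56361260-56361379 (minus strand, ZWINT), chr1:37692396-37692515 (plus strand, CDCA8), chr11:62123891-62124010 (plus strand, INCENP), chr16:23678769-23678888 (plus strand, PLK1), chr15:59105026-59105145 (plus strand, CCNB2) and chr12:53268179-53268298 (plus strand, ESPL1), each written 5′ to 3′ on its gene's strand. The TTTGAA word began 31 bases before the start in ZWINT, 23 in CDCA8, 10 in INCENP, 29 in PLK1, 29 in CCNB2 and 31 in ESPL1. The median log2 change was −0.79 for the 21 members with TTTGAA and −1.01 for the 16 without, and −0.81 for the 25 members with CCAAT, against −0.81 for the 12 without. A word match is a description of letters and not evidence that a factor binds there.

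**Figure D2:**
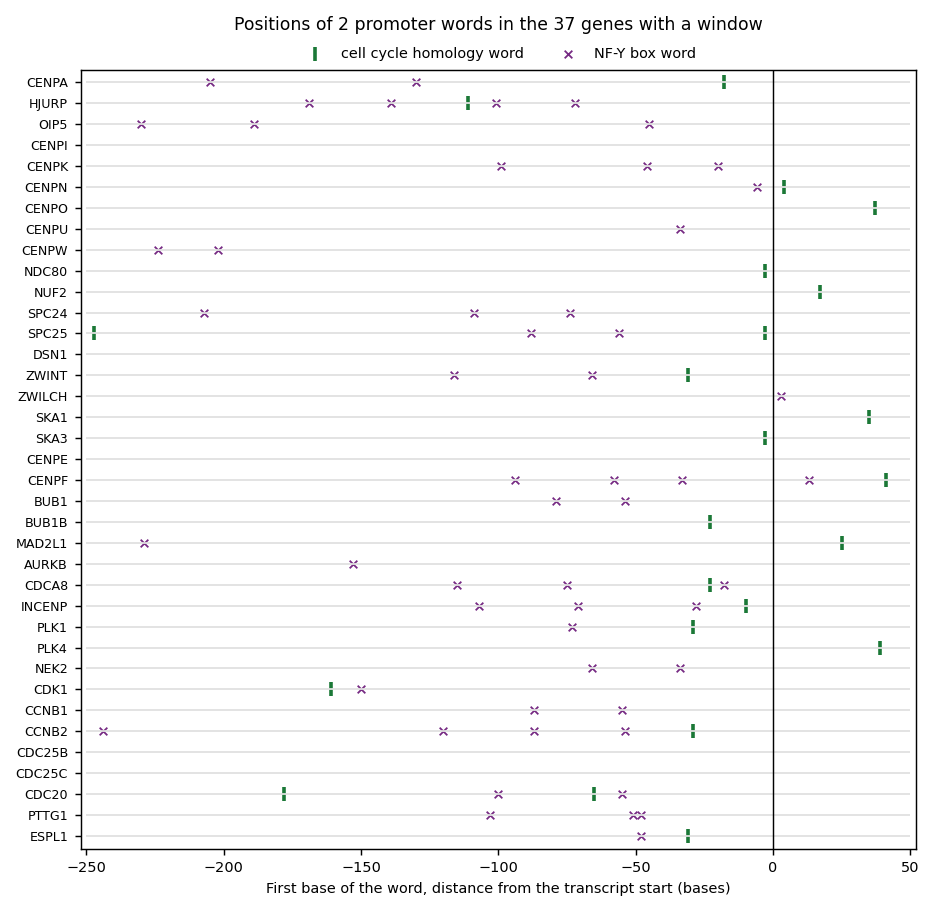
First base of each word in the promoter windows of 37 members, in bases from the transcription start (1 row a gene), with green bars for the cell cycle homology word and purple crosses for the NF-Y box word. TTTGAA lies within 50 bases of the start in 18 windows.

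The CENP-A nucleosome and its loading machinery had 4 members, all lower with both hairpins, with a median log2 change of −0.79. CENPA, the histone H3 variant that marks the centromere, was at 7.55 FPKM with shRNA1 and 8.66 with shRNA2, against 16.5 in the control (log2 change −0.99 ± 0.14, SE). HJURP, the chaperone that carries CENP-A to the centromere, was at 6.39 and 6.67 FPKM with the hairpins, against 11.6 in the control (−0.79 ± 0.12). On the log2 scale, shRNA1 minus shRNA2 was −0.19 for CENPA and −0.06 for HJURP. The deposited bounds of CENPA were wide (0 to 15.7 FPKM with shRNA1 and 0 to 17.5 with shRNA2). The Mis18 complex prepares the centromere for that loading. OIP5, which encodes its Mis18β subunit, was at 6.74 FPKM with shRNA1 and 9.98 with shRNA2, against 14.7 in the control, the second value being nearer the control. The deposited lower bound of OIP5 was 0 in every library. OIP5 shares 470 exon bases with its antisense RNA OIP5-AS1 (27.0 FPKM with shRNA1, 26.7 with shRNA2, 28.5 in the control), and reads of such a pair cannot be told apart where counting by strand is not stated. MIS18A, the other Mis18 subunit among the members, was nearer the control at 19.1 and 19.8 FPKM, against 25.4 (−0.38 ± 0.09).

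The inner kinetochore, known as the constitutive centromere-associated network, was represented by 9 genes that were all lower with both hairpins (median log2 change −0.74). CENPH, CENPI and CENPK belong to 1 subcomplex of it. CENPI was at 2.44 FPKM with shRNA1 and 3.75 with shRNA2, against 7.01 in the control, the lowest level of the 3 in every library. CENPK was at 8.11 and 9.03 FPKM with the hairpins, against 18.5 in the control. CENPH was at 12.6 FPKM with shRNA1 and 17.8 with shRNA2, against 29.2 in the control. CENPM, the remaining subunit of that group, was at 59.8% and 64.8% of the control. CENPW, a histone-fold protein that pairs with CENP-T, was at 7.16 and 8.30 FPKM with the hairpins, against 16.1 in the control (log2 change −1.02 ± 0.14). The least reduced were CENPU (31.7 and 32.2 FPKM, against 43.5) and CENPL (9.27 and 9.77 FPKM, against 13.3), and CENPN, the partner of CENP-L in reading the CENP-A nucleosome, lay beside them at 70.8% and 72.5% of the control. CENPL, CENPN, CENPO and CENPU each share exon bases with a gene on the opposite strand, CENPO 1488 of them with ADCY3 (6.94 and 6.04 FPKM with the hairpins, 7.82 in the control).

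In the outer kinetochore and its fibrous corona, 11 of 12 genes were lower with both hairpins and the median log2 change was −0.78. DSN1, a subunit of the MIS12 complex that ties the inner to the outer layer, was at 11.3 FPKM with shRNA1 and 14.3 with shRNA2, against 32.9 in the control. Its log2 change was −1.34 ± 0.17 (SE), and limma gave a Benjamini-Hochberg adjusted p of 0.0829. DSN1 was the only member whose deposited bounds with both hairpins (upper bounds 16.0 and 20 FPKM) lay under the control's lower bound of 20.3, a separation seen in 0.221% of all genes tested. All 4 subunits of the NDC80 complex, the microtubule-binding rod, were lower together, at 39.5% to 52.3% of the control with shRNA1 and 46.8% to 64.4% with shRNA2. SPC24 was at 8.46 and 10.0 FPKM with the hairpins, against 21.4 in the control. SPC25, its dimer partner, was at 5.30 FPKM with shRNA1 and 6.13 with shRNA2, against 11.8 in the control, although its lower bound was 0 in every library. NDC80 and NUF2, the other dimer, had log2 changes of −0.85 and −0.77.

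SKA3, part of the SKA complex that follows shortening microtubules, was at 3.10 FPKM with shRNA1 and 3.62 with shRNA2, against 6.57 in the control. CENPF, a large corona protein, was among the least reduced at 33.4 and 39.4 FPKM with the hairpins, against 51.0 in the control. ZWILCH, a subunit of the RZZ complex that recruits dynein and the checkpoint proteins, was the 1 member not under the control: 12.1 FPKM with shRNA1 and 13.3 with shRNA2, against 11.9. Its deposited bounds began at 0 in all 3 libraries and reached 61.2 FPKM, so its level is poorly fixed. ZWILCH shares 158 exon bases with RPL4 on the opposite strand, a ribosomal protein gene at 3217 FPKM with shRNA1 and 3004 with shRNA2, against 2453 in the control; the part of those reads in the ZWILCH value was not tested. When all libraries were scaled to the same total FPKM, which moves the log2 median over all genes down by 0.11 (shRNA1) and 0.03 (shRNA2), ZWILCH changed sign to −0.09 with shRNA1 and stood at 0.13 with shRNA2.

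All 5 spindle checkpoint genes were lower with both hairpins, with a median log2 change of −0.77. BUB1, the kinase that brings checkpoint proteins to the kinetochore, was at 10.7 FPKM with shRNA1 and 13.6 with shRNA2, against 24.7 in the control (−1.003 ± 0.18, SE). TTK, the MPS1 kinase that starts checkpoint signalling, was at 12.0 and 14.8 FPKM with the hairpins, against 23.2 in the control. These are the kinases at the head of the signal. The inhibitor of the APC/C that the checkpoint builds contains MAD2, BUBR1 and BUB3 along with CDC20. MAD2L1, which encodes MAD2, was at 19.8 FPKM with shRNA1 and 23.9 with shRNA2, against 38.5 in the control. BUB1B, which encodes BUBR1, was at 16.4 and 19.7 FPKM with the hairpins, against 29.2 in the control. BUB3 was both the most abundant and the least reduced of the 5, at 69.8 and 74.5 FPKM, against 96.9 (−0.42 ± 0.09). BUB3 also serves outside the checkpoint as a partner of splicing factors.

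The chromosomal passenger complex corrects faulty attachments through the Aurora B kinase, and all 4 of its genes were lower with both hairpins (median log2 change −0.62). AURKB, the kinase, was furthest under the control at 13.8 FPKM with shRNA1 and 16.8 with shRNA2, against 34.4. Its 3 partners lay nearer the control. INCENP, the scaffold, was at 19.6 and 21.5 FPKM with the hairpins, against 33.0 in the control. BIRC5, which encodes survivin, was at 46.8 FPKM with shRNA1 and 58.6 with shRNA2, against 78.0 in the control. CDCA8, which encodes borealin, was at 15.6 and 17.0 FPKM with the hairpins, against 22.7 in the control. The SE of the AURKB log2 change was 0.15 and that of CDCA8 0.11, around −1.15 and −0.47, and the difference between the genes was not tested.

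The 9 mitotic kinases, B-type cyclins and CDC25 phosphatases were all lower with both hairpins and had the most negative median log2 change of the role groups, −0.93. PLK1, a kinase needed from mitotic entry to cytokinesis, had the most negative change of the 47 genes in the fit over both hairpins and with shRNA1; with shRNA2 its −1.09 came after ESPL1 (−1.29), DSN1 (−1.18) and CDC25B (−1.11). It was at 11.6 FPKM with shRNA1 and 17.2 with shRNA2, against 37.2 in the control. The log2 change of −1.36 had an SE of 0.26, since the hairpins differed, and limma gave an adjusted p of 0.0901 (Benjamini-Hochberg). CDK1, the mitotic cyclin-dependent kinase, was at 46.7% and 58.9% of its control level of 172 FPKM. CCNB2 was at 33.4 FPKM with shRNA1 and 44.9 with shRNA2, against 79.4 in the control, and CCNB1 at 57.1% and 70.2% of the control. CDC25 phosphatases remove the inhibitory phosphates of CDK1. CDC25B was at 5.39 and 5.23 FPKM with the hairpins, against 11.9 in the control, and CDC25C at 6.70 and 8.58 FPKM, against 15.9. CDC25C shares 293 exon bases with FAM53C on the opposite strand (21.2 and 19.2 FPKM with the hairpins, 18.9 in the control). The least reduced were AURKA, the spindle pole kinase (59.6 and 69.5 FPKM, against 90.0), and PLK4, which governs centriole duplication (4.63 and 5.52 FPKM, against 6.54). PLK4 acts in S phase rather than at the kinetochore, and its unadjusted p in the limma fit was 0.106.

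The 4 genes of APC/C activation and chromosome separation were lower with both hairpins, with a median log2 change of −0.78. CDC20, the APC/C activator that the checkpoint restrains, was at 35.9 FPKM with shRNA1 and 44.3 with shRNA2, against 64.5 in the control. UBE2C, the ubiquitin-conjugating enzyme of the APC/C, was at 91.6 and 117 FPKM with the hairpins, against 174 in the control. PTTG1, which encodes securin, the inhibitor of separase, was the most abundant member at 139.8 FPKM with shRNA1 and 182 with shRNA2, against 282 in the control. Its near-identical copies PTTG2 and PTTG3P were listed at no more than 0.1299 FPKM in any library. ESPL1, which encodes separase, the protease that opens cohesin, was at 6.90 and 6.26 FPKM, against 16.1 in the control. Its log2 change was −1.23 ± 0.13 (SE). Securin RNA thus exceeded separase RNA in every library, on the FPKM scale.

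**Figure D3:**
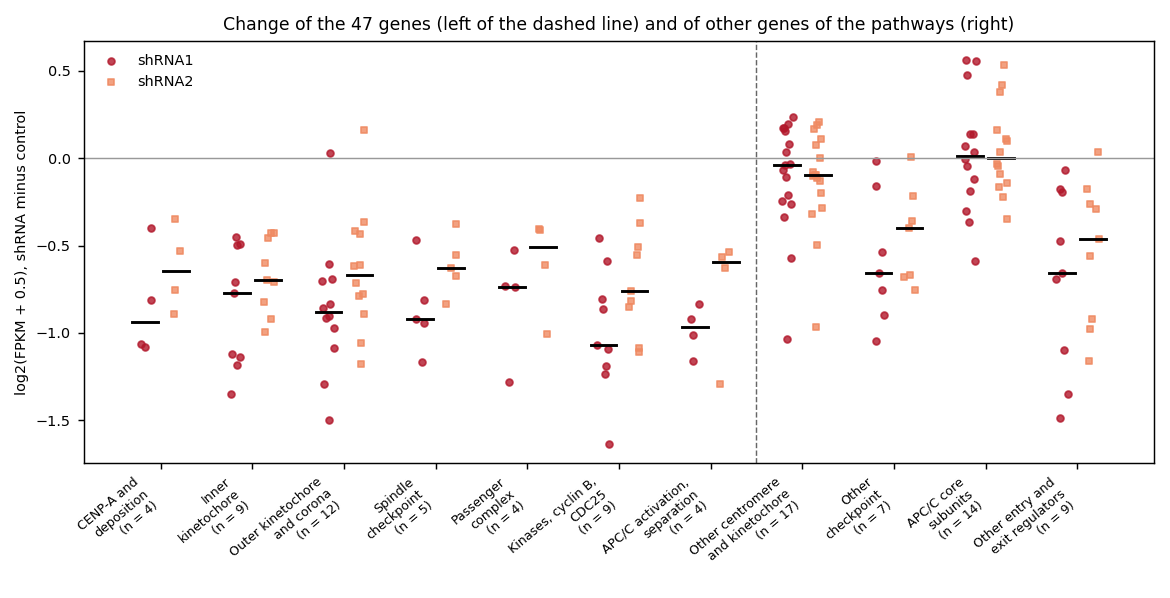
Difference of each knockdown library from the control on the log2(FPKM + 0.5) scale, by role group, for the 47 genes and, beyond the dashed line, the other pathway genes; points are genes, circles stand for shRNA1, squares for shRNA2 and black bars for medians. Among the 47, all points but those of ZWILCH (−0.09 with shRNA1 at the same total FPKM) lie under 0, while the APC/C core subunits spread on both sides with a median of 0.02 in the fit over both hairpins (−0.05 at the same total).

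The hairpins differed in size of change. In 45 of the 47 genes the level was lower with shRNA1 than with shRNA2, where 52.2% of all genes tested were, and the exceptions were CDC25B and ESPL1. Among the 5591 genes lower with both hairpins, 70.85% were lower with shRNA1. The median difference over the members was −0.23 on the log2 scale (shRNA1 minus shRNA2), against −0.01 over all genes tested, and the median level was 52.8% of the control with shRNA1 and 64.0% with shRNA2. At or under 50% of the control stood 19 members with shRNA1 and 7 with shRNA2. For all 47 genes the deposited bounds of the knockdown libraries overlapped each other. The shares of all genes tested were not computed for these counts, so neither is a result about the members alone. ERINA was also listed lower with shRNA1 than with shRNA2, and with 1 library for each hairpin the difference could not be tested.

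Members of 1 complex did not all stand at the same distance from the control. In the MIS12 complex, DSN1 was at 34.3% and 43.4% of the control with the hairpins, while its partners outside the 47 were at 83.3% and 82.0% (PMF1), 97.2% and 107.9% (NSL1), and 115% and 116% (MIS12). In the SKA complex, SKA1 was at 53.8% and 63.6% and SKA3 at 47.3% and 55.1%, while SKA2 was at 118% and 106%. In the RZZ complex, KNTC1, which encodes ROD, was at 61.2% and 73.4%, while ZW10 was at 113% and 114% and ZWILCH at 102% and 112%, with the ZWILCH value of shRNA1 changing side at the same total FPKM. Subunits of a complex therefore lay on both sides of the control level, but those above it with both hairpins were not called higher. Their Benjamini-Hochberg adjusted p in limma was 0.271 (MIS12), 0.367 (SKA2), 0.235 (ZW10) and 0.610 (ZWILCH), and none passed under any alternative. ZW10 also has a role in membrane traffic outside mitosis. CENPW was at 44.3% and 51.4% of the control, while its histone-fold partners CENPT (112% and 94.4%), CENPS (97.6% and 93.2%) and CENPX (106% and 92.4%) were near it. In the CENP-O group, CENPO and CENPU (56.7% and 59.5%; 72.9% and 74.0%) stood under CENPP (83.3% and 86.0%), CENPQ (85.6% and 90.9%) and ITGB3BP, which encodes CENP-R (103% and 100%). The deposited lower bounds of CENPP and CENPT were 0 in every library, so their levels are poorly fixed. CENPP shares 3719 exon bases with IPPK on the opposite strand (13.2 and 11.7 FPKM with the hairpins, 7.66 in the control). CENPT, CENPS, CENPX, ITGB3BP, MIS12 and PMF1 also share exon bases with other genes, and the part of those reads was not tested. With all libraries at the same total FPKM, the log2 changes of MIS12, SKA2 and ZW10 were 0.13, 0.08 and 0.10, while those of NSL1, CENPT and ITGB3BP changed sign to −0.04, −0.04 and −0.06. Differences between subunits were not tested, and the grouping into complexes was made after the values had been seen. The members and the list of partners were also chosen with earlier results of these data known. The contrast between members and partners is therefore not independent of that choice.

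**Figure D4:**
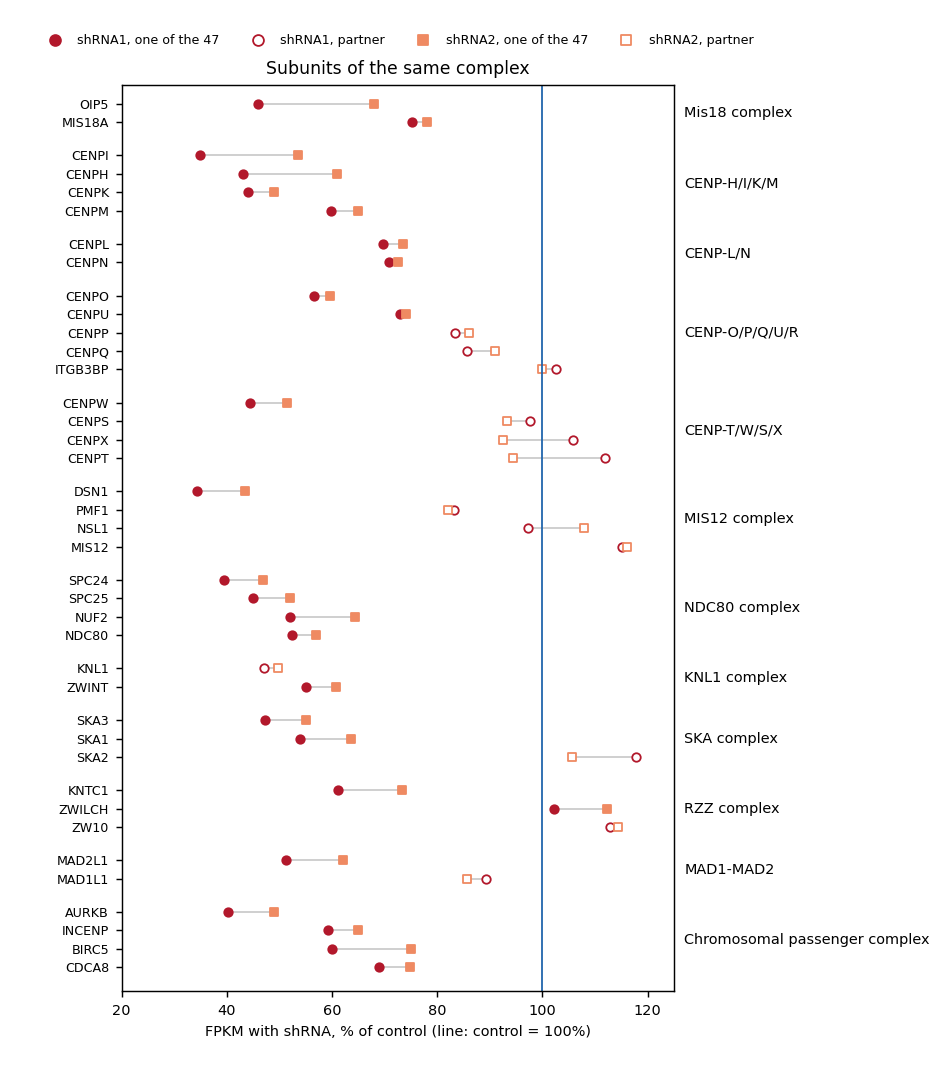
Percent of the control FPKM in the shRNA1 and shRNA2 libraries for subunits of the complexes, with filled markers for the 47 genes, open markers for partners and a line at the control level. NDC80 and passenger complex subunits all lie under the line, at 39.5% to 75.1%, while the MIS12, SKA and RZZ complexes have subunits on both sides. None of those above the line with both hairpins was called higher by limma.

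The 48 other genes of these pathways, listed by function, gave a mixed picture. Of the 47 that passed the filter on low levels, 29 were lower and 11 higher with both hairpins (32 and 8 at the same total FPKM). Over all genes tested 42.6% were lower with both, and the share higher with both was not computed. The median log2 change of the list was −0.17. The gene left out by the filter was PLK3, at 0.261 and 0.40 FPKM with the hairpins, against 0.506 in the control. No gene of this list passed the limma test with Benjamini-Hochberg adjustment over all genes. In the fit of protein-coding genes alone, 12 passed as lower, against 11.3% of protein-coding genes, and 3 as higher, against 7.11%, so that the share of higher calls was near the background. The 6 genes of this list with the largest log2 changes in either direction were all lower. The other regulators of mitotic entry and exit were spread. WEE1 (88.0% and 102.7% of the control), CDC25A (86.5% and 88.0%) and FZR1 (95.1% and 83.03%) stood nearest the control. MASTL (61.1% and 67.1%), PLK2 (63.3% and 72.4%) and UBE2S (71.6% and 81.6%) stood further under it. PKMYT1, a kinase that inhibits CDK1, was at 6.24 FPKM with shRNA1 and 7.95 with shRNA2, against 18.4 in the control; it shares 1233 exon bases with PAQR4 on the opposite strand (23.1 and 24.7 FPKM with the hairpins, 31.3 in the control). CCNA2, the cyclin of S phase and G2, was at 16.6 and 21.6 FPKM with the hairpins, against 43.2 in the control. FBXO5, which encodes the APC/C inhibitor EMI1, was at 7.24 FPKM with shRNA1 and 8.24 with shRNA2, against 16.0 in the control. KNL1, the outer kinetochore platform for BUB1, stood at 47.1% and 49.7% of the control. TRIP13, the ATPase that recycles MAD2, stood at 47.8% and 58.9%, and SGO2, a shugoshin that guards cohesin, at 51.5% and 61.2%.

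The core of the APC/C did not share this direction. Of its 14 subunits measured, 6 were lower and 6 higher with both hairpins, where 42.6% of all genes tested were lower with both. The count of lower subunits was thus near the background. Their median log2 change was 0.02, or −0.05 with 6 lower and 4 higher at the same total FPKM. ANAPC13 was at 72.7 FPKM with shRNA1 and 71.2 with shRNA2, against 49.1 in the control. ANAPC15, the subunit through which the APC/C frees itself of the checkpoint inhibitor, was at 38.0 and 34.6 FPKM, against 25.7 in the control. Its deposited bounds began at 0 in every library and reached 105.6 FPKM with shRNA1 and 77.8 in the control, so its level is poorly fixed. ANAPC13, ANAPC15 and CDC16 (140.7% and 131% of the control) were the 3 higher genes in the fit of protein-coding genes alone. The core subunit CDC23 passed as lower in the same fit, at 66.1% and 78.4% of the control. CDC23 shares 68 exon bases with KIF20A on the opposite strand (13.2 and 17.8 FPKM with the hairpins, 41.3 in the control), and the part of those reads was not tested. The 3 higher genes were still above the control at the same total FPKM, with log2 changes of 0.35 to 0.47. ANAPC15 shares 780 exon bases with LRTOMT on the opposite strand (44.6 and 41.8 FPKM with the hairpins, 23.6 in the control), and ANAPC13 shares 306 with CEP63 (16.0 and 13.4 FPKM with the hairpins, 10.1 in the control); the part of those reads was not tested. The CDC20 and UBE2C RNAs, which act with this core, were at 52.8% to 68.7% of the control. By function, the medians of the log2 changes were −0.07 for the other centromere and kinetochore genes, −0.51 for the other checkpoint genes and −0.56 for the other regulators of mitotic entry and exit.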

How the data were processed

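RNA sequencing of 3 T47D libraries (2 ERINA knockdown, 1 control) was used. The authors deposited FPKM values per gene with lower and upper bounds and a status, which was OK for all 47 members; the confidence level of the bounds is not given in the sources used here. The submitters' processing notes name STAR, RSEM and the GRCh38 build, with neither role nor version. The sources used here state neither what computed the FPKM and on which annotation, nor whether strand was used in counting. FPKM are not counts, so no count test was run. Depth was estimated from genes with 1 transcript of at least 1500 bases, reading their FPKM as that of 1 fragment. Only genes whose implied depth fell in a range set beforehand were used, so no estimate could lie outside that range. The similar depths of the libraries are therefore partly fixed by this choice.

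The FPKM were used as deposited. The 13112 genes whose mean FPKM reached 1 were fitted on log2(FPKM + 0.5), which understates changes of low genes, with limma 3.58.1 in R 4.3.3 (lmFit, eBayes with trend, knockdown against control), with Benjamini-Hochberg adjustment over all of them and a threshold of 0.05. The residual has 1 degree of freedom, which the variance borrowed over genes by eBayes raises to a median total of 3.88. The control is assumed to vary as the hairpin libraries do. Coordinates and gene types came from GENCODE release 29 (98.96% of gene identifiers matched) and promoter windows from RefSeq.

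Values are given for every gene in role groups of 5 or fewer, otherwise for the 4 most and 2 least negative, and for any member not lower with both hairpins; partners in a complex and others named beyond this were chosen after their values were seen. The members, the pathway list and the role groups were chosen with earlier results of these data known. Alternatives tried were other pseudocounts, filters, scalings and eBayes settings, protein-coding genes alone, and leaving out each hairpin.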

Additional observations from a re-analysis of the deposited data

How the results depend on the processing

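The median log2 change of the members stayed between −0.75 and −0.85 under every alternative that kept both hairpins, and was −0.63 without knockdown replicate 1 and −0.91 without knockdown replicate 2. Members lower with both hairpins numbered 46 under each alternative but the filter at a mean FPKM of at least 5, where 43 were counted because fewer members were tested. The number called by limma with Benjamini-Hochberg adjustment depended on the setting: 0 members as fitted, 2 with all libraries at the same total FPKM (CDC25B and ESPL1; 0.847% of all genes tested), 23 with robust eBayes (4.54%) and 43 with protein-coding genes alone (11.3%). For the other pathway genes called lower the numbers were 0, 8 with robust eBayes and 12 with protein-coding genes alone; the cause was not tested. No paired analysis was possible because the control is a single library whose label carries no replicate number. The median of shRNA1 minus shRNA2 over the members ran between −0.22 and −0.32. Of the 41 genes named by rule, none changed sign in the fit under any alternative.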

Other observations

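Among the genes listed, only 2 pairs lay within 50000 bases of each other. CCNB1 and CENPH are neighbours on chromosome 5 on the same strand, 11302 bases apart, and stood at 57.1% and 70.2% (CCNB1) and 43.1% and 61.0% (CENPH) of the control with shRNA1 and shRNA2. CDC25B lies 81 bases from CENPB on chromosome 20 on the opposite strand. CDC25B was at 45.5% and 44.1% of the control, while CENPB was at 78.8% and 79.9%.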
